A study of Mus musculus with 32 samples.

Results

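Expression of 42 genes of cholesterol and fatty acid synthesis was followed in 32 mouse kidneys by RNA sequencing. The genes were chosen by symbol, with their Ensembl identifiers matched to the 53700 genes of the count table, and were read as a sterol branch of 23 genes and a fatty acid branch of 19 genes. Of the 42 genes, 41 passed the filter on low counts that left 13961 genes for testing. The exception was Fdps, which makes farnesyl diphosphate and had a mean of 0.84 CPM (reads of the gene scaled to a library of 1e6 reads counted on genes) in wildtype, 0.80 in PKD and 0.73 in PKD + Salsalate kidneys. Reads with more than 1 place in the genome were not counted, and the part of this in the low level of Fdps was not tested.

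Cholesterol is built from acetyl-CoA through mevalonate, farnesyl diphosphate and squalene, which is closed to a ring and trimmed to cholesterol. Fatty acids are built from the same acetyl-CoA by carboxylation and chain synthesis, and are then elongated, desaturated and joined to glycerol. Both branches are known to be switched on by the SREBP transcription factors, Srebf2 mainly for sterol genes and Srebf1 mainly for fatty acid genes, which Scap carries to the Golgi when sterols are low and the Insig proteins hold back when sterols are high.

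All kidneys came from male C57BL/6 mice of the iKspCre-Pkd1del line, in which a Cre that tamoxifen switches on is driven by the Ksp-cadherin promoter of kidney tubule cells and LoxP sites flank exons 2 to 11 of Pkd1, the gene most often mutated in polycystic kidney disease. The 8 wildtype mice belonged to this line, carried no induced deletion because they were not given tamoxifen, and were 109 days old. The 12 PKD mice had received tamoxifen (150 mg/kg) as juveniles and were 95 days old. The 12 PKD + Salsalate mice were treated alike and received salsalate, a prodrug of salicylate that activates the kinase AMPK, at 2.5 g per kg of food for the last 2 weeks. Mice of both PKD groups had been selected for a similarly mild cystic phenotype, so the kidneys are not a random draw of treated and untreated animals. The deletion, tamoxifen and age of the mice cannot be told apart in comparisons with wildtype. Acetyl-CoA carboxylase, the product of Acaca and Acacb, is a known substrate of AMPK, but phosphorylation is not visible in RNA counts.

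Between 11193136 and 109807664 reads were counted on genes per kidney, most in PKD + Salsalate replicate 3. Pkd1 counts included the exons that are not deleted and so did not check the deletion. Pkd1 had a mean of 68.7 ± 10.9 CPM in wildtype (SD, n = 8), 92.1 ± 15.1 CPM in PKD (SD, n = 12) and 92.7 ± 15.1 CPM in PKD + Salsalate kidneys (SD, n = 12). As a check of the tissue, Slc34a1 of the proximal tubule and Umod of the thick ascending limb had a mean of 5720 and 2356 CPM over the 32 kidneys. Fewer cells of a type and less RNA per cell cannot be told apart in whole kidneys.

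A set of libraries stood apart within the wildtype group. The names of wildtype replicates 1 to 5 end in the letter R, those of replicates 6 to 8 and of every PKD and PKD + Salsalate library do not, and what the letter stands for is not given in the sources used here. Of the 41 tested members, 34 had a lower mean in the 5 libraries ending in R than in the 3 others. In 25 the ranges of the 5 and the 3 libraries did not overlap, with all 5 libraries below in 22 and above in 3. These counts were not made over all genes tested, so they do not set the members apart from other genes. Of the reads, 73.6 to 76.4% fell on genes and 13.2 to 15.7% on no annotated gene in the libraries ending in R, against 80.9 to 83.1% and 7.60 to 9.77% in the other 3. The summed level of 10 proximal tubule markers was 7805 to 10545 CPM in the libraries ending in R and 13052 to 15140 CPM in the other 3. The part of these differences in the results was not tested, so members are compared with all 8 wildtype libraries and with each of the 2 sets.

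Among the PKD libraries, replicate 10 held liver transcripts and replicate 12 transcripts of the adrenal cortex. The summed level of 16 liver markers was 7780 CPM in PKD replicate 10 and 1114 to 1844 CPM in the other PKD kidneys, with Alb (albumin) at 1930 CPM. The summed level of 9 adrenal cortex markers was 107 CPM in PKD replicate 12 and 6.53 to 8.97 CPM in the other PKD kidneys. Liver also expresses many of the members, and the highest PKD values of Scd1 (716 CPM), Elovl5 (93.3 CPM) and Sc5d (75.3 CPM) were those of replicate 10. Among tested members, this replicate also had the highest PKD values of Acat2, Hmgcs1, Nsdhl, Ebp, Me1, Fads1 and Fads2. The highest PKD value of Msmo1 (30.2 CPM) was that of replicate 12, as were those of Fdft1, Lss and Elovl6. Highest PKD values were also found together in replicate 2, whose liver marker sum was 1529 CPM. They were those of Idi1, Sqle, Hsd17b7, Insig1, Insig2, Stard4, Acly and Gpam. The part of liver or adrenal RNA in the members' values was not tested. Every count was also made without PKD replicates 10 and 12.

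Promoter windows from RefSeq (mouse GRCm38.p6), of 250 bases before and 50 after the transcription start, were found for 33 of the 42 members. The CCAAT box, searched as CCAAT on both strands, was in the windows of 17 of 19 sterol genes, of 10 of 14 fatty acid genes and of 41.06% of the 27025 genes with a window. The sterol regulatory element, searched as TCACNCCAC on both strands, was in 1 of 19 sterol genes, Hmgcs1, in 0 of 14 fatty acid genes and in 1.44% of all genes. The E-box CACGTG was in 5 of 19 sterol genes, 1 of 14 fatty acid genes and 8.09% of all genes. A match is a description of letters, and a window without one says only that these letters are not in it. The 250 bases before the start are shown for Hmgcs1, which holds the single sterol element, and for Mvk and Tm7sf2, the 2 members that lead the comparison of PKD + Salsalate with PKD. The bases run 5′ to 3′ towards the start on the gene's strand, with positions found on GRCm39 by exact match and with capitals for CCAAT boxes (CCAAT, or ATTGG on the other strand) and the sterol element.
Hmgcs1, chr13:120151637-120151886, plus strand: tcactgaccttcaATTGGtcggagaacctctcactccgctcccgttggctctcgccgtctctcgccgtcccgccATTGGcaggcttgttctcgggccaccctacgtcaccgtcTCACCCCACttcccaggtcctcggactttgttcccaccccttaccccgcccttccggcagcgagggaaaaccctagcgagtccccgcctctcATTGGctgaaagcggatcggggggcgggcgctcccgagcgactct
Mvk, chr5:114582080-114582329, plus strand: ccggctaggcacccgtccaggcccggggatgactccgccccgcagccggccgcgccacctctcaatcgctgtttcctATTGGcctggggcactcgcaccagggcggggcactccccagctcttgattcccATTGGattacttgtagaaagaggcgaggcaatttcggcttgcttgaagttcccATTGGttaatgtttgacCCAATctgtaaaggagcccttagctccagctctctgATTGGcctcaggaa
Tm7sf2, chr19:6117881-6118130, minus strand: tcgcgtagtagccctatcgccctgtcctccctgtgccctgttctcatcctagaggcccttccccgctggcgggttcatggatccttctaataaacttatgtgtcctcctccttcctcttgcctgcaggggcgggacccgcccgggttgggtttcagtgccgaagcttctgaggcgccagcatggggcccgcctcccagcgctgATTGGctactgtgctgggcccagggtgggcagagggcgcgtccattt
The sterol element of Hmgcs1 lies 137 bases before the start, between CCAAT boxes. The 250 bases of Mvk hold 5 CCAAT boxes, 3 are in those of Hmgcs1 and 1 is in those of Tm7sf2. The RefSeq starts of Mvk and Tm7sf2 lie inside the genes as the annotation used for the other positions places them.

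Levels per kilobase of exon were compared between genes in PKD kidneys. In the sterol branch the highest mean was that of Hmgcs1 with 74.2 CPM per kilobase, ahead of Mvd with 24.7 and Cyp51 with 22.7, and the lowest were those of Fdps with 0.163, Lss with 1.66 and Mvk with 1.78. In the fatty acid branch Me1 had 62.6 CPM per kilobase, Dgat2 33.5 and Scd1 31.1, and the lowest means were those of Acaca with 2.01 and Elovl6 with 4.03. Hmgcs1 and Me1 were thus the most abundant members of their branches in PKD kidneys.

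The comparison of PKD with wildtype kidneys asked what differs in mildly cystic kidneys. By edgeR's quasi-likelihood test with an adjusted p under 0.05, 8 of 22 tested sterol genes and 10 of 19 fatty acid genes differed. Sqle was the 1 sterol gene higher in PKD, while Acat2, Hmgcs1, Pmvk, Mvd, Idi1, Cyp51 and Tm7sf2 were lower. Elovl5, Scd2, Fads1 and Srebf1 were the 4 fatty acid genes higher in PKD, while Acly, Me1, Acacb, Fasn, Mcat and Lpin1 were lower. Of all genes tested, 24.1% were called higher and 25.0% lower. The median log2 fold change was 0.02 in the sterol branch, -0.17 in the fatty acid branch and -0.01 over all genes tested. The sterol median was -0.04 without wildtype replicate 1 and 0.06 without wildtype replicate 7, and the fatty acid median -0.24 without wildtype replicate 1 and -0.03 without wildtype replicate 8.

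The direction depended on the wildtype libraries used in 20 of the 41 members, 13 sterol and 7 fatty acid genes, whose log2 fold changes against the 2 sets had opposite signs. Of 130 tested genes of the other pathway and marker lists, 52 had opposite signs as well. The share over all genes tested was not counted, so the 20 are not read as a trait of the members. Wherever 2 values are given for the 2 sets, the first is against the libraries ending in R. Against the 5 libraries ending in R, 9 sterol and 8 fatty acid genes were called higher in PKD and 4 and 3 were called lower, with 30.7% of all genes called higher and 28.9% lower. Against the 3 other libraries, no member was called higher, and 9 sterol and 10 fatty acid genes were called lower, with 20.9% of all genes called higher and 19.9% lower. The branch medians were 0.14 and 0.17 for sterol and fatty acid genes against the first set, and -0.24 and -0.53 against the second. Mvd, Tm7sf2, Acly and Mcat were the members called lower in all 3 fits, and none was called higher in all 3. How many of all genes were called in all 3 fits was not counted, so these counts have no background to be read against. Without PKD replicates 10 and 12, the calls against all 8 wildtype libraries also included Acaca and Thrsp among the lower genes, with 22.8% of all genes called higher and 23.6% lower.

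**Figure D1:**
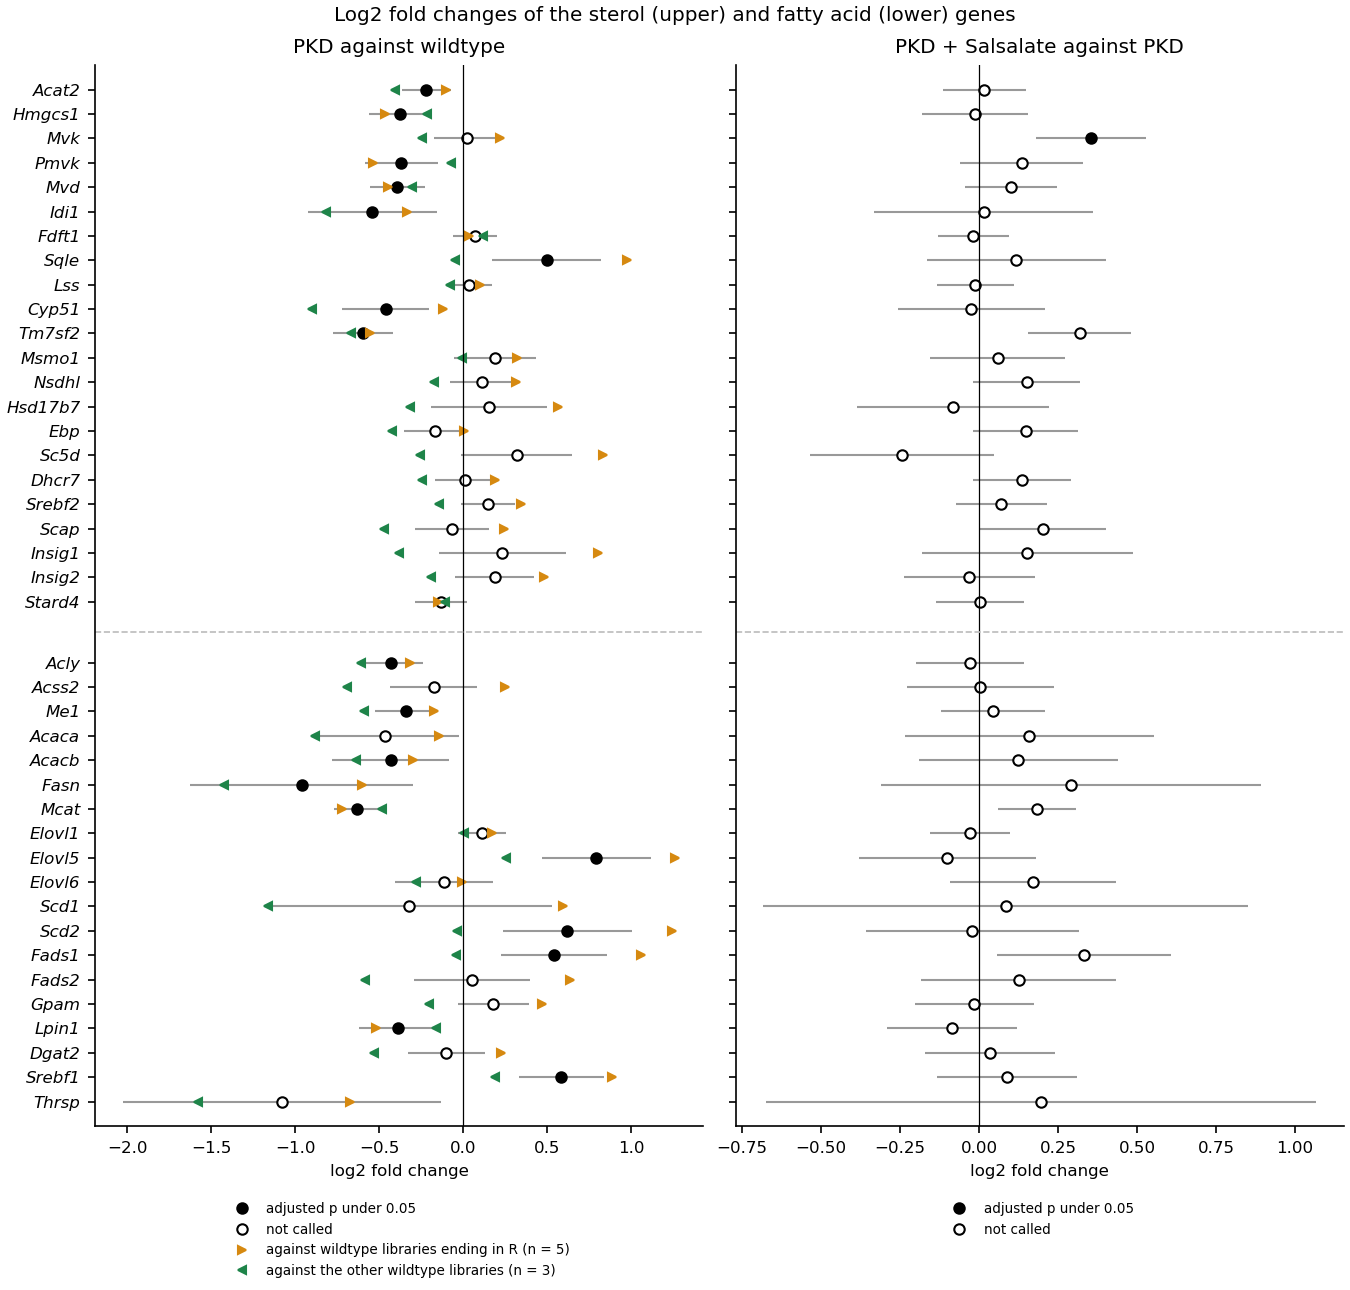
Log2 fold changes of the 41 tested genes (circles, with 95% intervals) for PKD against wildtype on the left and PKD + Salsalate against PKD on the right, with sterol genes above the dashed line and fatty acid genes below it. Filled circles have an adjusted p under 0.05 by edgeR's quasi-likelihood test. Triangles give the PKD against wildtype fold change against the 5 wildtype libraries ending in R or the 3 others, and in 20 of 41 genes the triangles lie on opposite sides of 0. On the right, Mvk is the 1 filled circle.

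Of 6 tested enzymes that make and use mevalonate, 5 were called lower and 0 higher in PKD kidneys, where 25.0% and 24.1% of all genes were, with a median log2 fold change of -0.37. Of these 5, Mvd alone was called lower against both wildtype sets. Hmgcs1 (chr13:120151915-120170470, GRCm39), which joins acetyl-CoA units to HMG-CoA, ranged from 402 to 576 CPM with a median of 506 in wildtype and from 294 to 502 CPM with a median of 392 in PKD. All 12 PKD kidneys lay below the wildtype median and 7 below every wildtype kidney. Hmgcs1 had a log2 fold change of -0.37 ± 0.09 (SE, adjusted p = 0.0012), with -0.47 (adjusted p = 0.00024) for the libraries ending in R and -0.21 (adjusted p = 0.18) for the other 3.

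Mvd (chr8:123160336-123170324), which decarboxylates mevalonate diphosphate, ranged from 64.1 to 112 CPM with a median of 85.3 in wildtype and from 53.9 to 77.6 CPM with a median of 67.2 in PKD. The 12 PKD kidneys lay below the wildtype median, and the ranges overlapped. Mvd fell by 0.39 on the log2 scale (SE 0.08, adjusted p = 0.00014), by 0.45 against the first set (adjusted p = 0.00012) and by 0.31 against the second (adjusted p = 0.0093).

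Acat2, which joins 2 acetyl-CoA in the cytosol, had 105 ± 14.7 CPM in wildtype (SD, n = 8) and 90.3 ± 8.77 CPM in PKD (SD, n = 12), with a log2 fold change of -0.22 ± 0.07 (SE, adjusted p = 0.012). Pmvk, the phosphomevalonate kinase, had 28.5 ± 5.26 and 22.1 ± 4.00 CPM, a log2 fold change of -0.37 ± 0.11 (SE, adjusted p = 0.0048). Idi1, which isomerizes isopentenyl diphosphate, had 20.7 ± 5.86 and 14.1 ± 4.23 CPM, a log2 fold change of -0.54 ± 0.19 (SE, adjusted p = 0.018). These 3 calls each rested on 1 set of wildtype libraries, and that of Acat2 was lost without a filter on low counts (adjusted p = 0.054). Pmvk was called lower only against the libraries ending in R (-0.53 and -0.07 for the 2 sets), and Acat2 (-0.10 and -0.41) and Idi1 (-0.34 and -0.82) only against the other 3. Without wildtype replicate 7, the adjusted p of Idi1 was 0.062. Mvk, the mevalonate kinase, had 19.4 ± 4.78 CPM in wildtype and 19.9 ± 2.16 CPM in PKD (log2 fold change 0.03 ± 0.10, SE, adjusted p = 0.85), with 0.22 and -0.24 for the 2 sets and a call as lower against the second (adjusted p = 0.024).

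**Figure D2:**
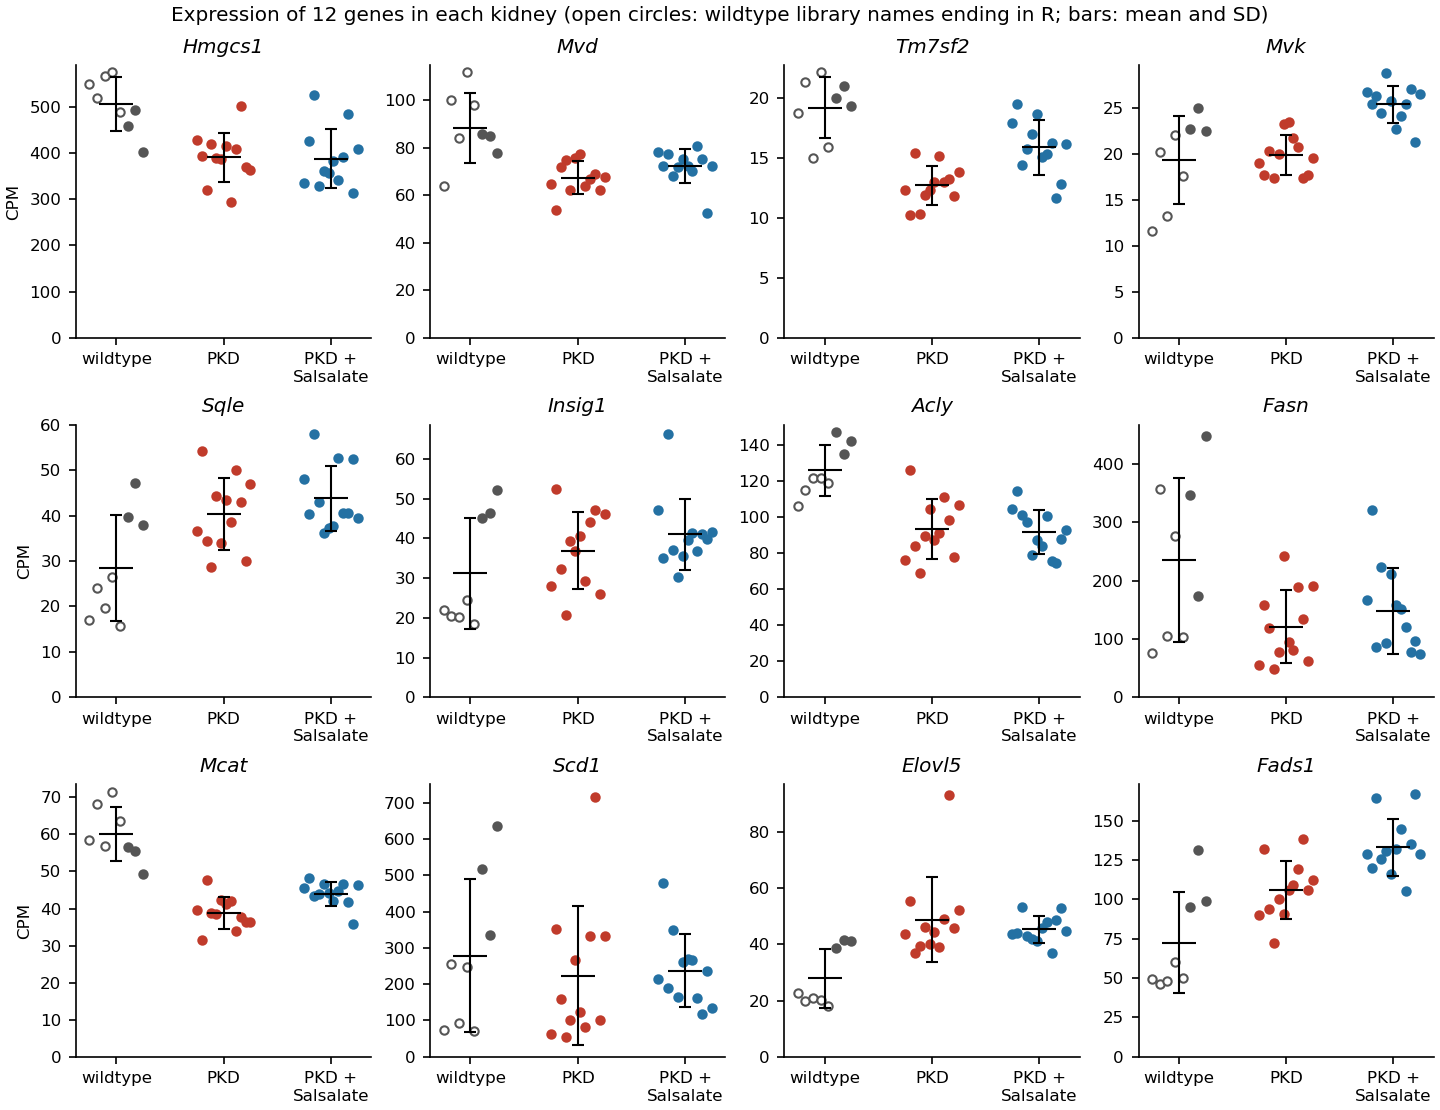
CPM of 12 members in each kidney by group, with the mean and SD as black bars and open circles for the 5 wildtype libraries ending in R. In Mcat the 12 PKD kidneys lie below all 8 wildtype kidneys. In Sqle, Insig1, Elovl5 and Fads1 the open circles lie below the filled wildtype circles, and the PKD kidneys overlap the latter. In Mvk, 10 of the 12 PKD + Salsalate kidneys lie above every PKD kidney.

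From squalene to cholesterol, 11 tested enzymes had 1 call higher, 2 calls lower and a median log2 fold change of 0.07. These calls were fewer than the 24.1% of all genes called higher and the 25.0% called lower. Tm7sf2 (chr19:6112851-6118403), a sterol C14-reductase of the ring, ranged from 15.0 to 22.2 CPM with a median of 19.7 in wildtype and from 10.3 to 15.4 CPM with a median of 12.7 in PKD. All 12 PKD kidneys lay below the wildtype median and 10 below every wildtype kidney. Tm7sf2 fell by 0.60 on the log2 scale (SE 0.09, adjusted p = 1.4e-06), by 0.56 for the libraries ending in R (adjusted p = 4.2e-05) and by 0.67 with the other 3 (adjusted p = 3.1e-05). It shares 532 bases (10.8%) of its exons with Vps51 on the same strand, so some of its reads could not be assigned to a gene.

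Cyp51, the lanosterol demethylase, ranged from 120 to 281 CPM with a median of 164 in wildtype and from 98.1 to 162 CPM with a median of 136 in PKD. Every PKD kidney lay below the wildtype median, and 4 below every wildtype kidney. Cyp51 had a log2 fold change of -0.46 ± 0.13 (SE, adjusted p = 0.0033), with -0.12 for the libraries ending in R (adjusted p = 0.36) and -0.90 with the other 3 (adjusted p = 2.9e-06). Sqle, the squalene epoxidase that starts ring formation, ranged from 15.7 to 47.1 CPM with a median of 25.2 in wildtype and from 28.8 to 54.2 CPM with a median of 40.8 in PKD. The 5 libraries ending in R held 15.7 to 26.4 CPM of Sqle, all below the 12 PKD kidneys, and the other 3 held 38.0 to 47.1 CPM, within the PKD range. The log2 fold change of Sqle was 0.50 ± 0.16 (SE, adjusted p = 0.010) and 0.97 against the first set (adjusted p = 1.1e-06), but -0.05 against the second (adjusted p = 0.83).

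The other 8 ring and late enzymes were not called against all wildtype libraries. Sc5d, the desaturase of the sterol B ring, had 0.32 ± 0.16 (log2 fold change and SE, adjusted p = 0.10), with 0.83 (adjusted p = 7.8e-06) and -0.26 (adjusted p = 0.20). It was called without wildtype replicate 6 (0.42), 7 (0.44) or 8 (0.41). Hsd17b7, Nsdhl and Msmo1, which take part in removing the methyl groups at carbon 4, had log2 fold changes of 0.56, 0.32 and 0.32 against the libraries ending in R, each called, and -0.31, -0.17 and -0.0035 against the others, none called. Ebp, the sterol isomerase, and Dhcr7, the last reductase, were called lower against the second set only, with -0.42 (adjusted p = 0.00034) and -0.25 (adjusted p = 0.037). Ebp was also called without wildtype replicate 1 (-0.22, adjusted p = 0.043) or 3 (-0.22, adjusted p = 0.048). Fdft1, the squalene synthase, and Lss, the lanosterol synthase, were within 0.12 of 0 on the log2 scale against either set, with 95% intervals against all 8 libraries of -0.06 to 0.20 for Fdft1 and -0.10 to 0.17 for Lss.

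None of the 5 genes of sterol sensing and transport was called against all 8 wildtype libraries, where 24.1% of all genes were called higher and 25.0% lower. The transcription factor Srebf2 ranged from 56.1 to 91.3 CPM with a median of 66.3 in wildtype and from 69.8 to 92.8 CPM with a median of 78.6 in PKD. The libraries ending in R held 56.1 to 67.5 CPM, below every PKD kidney, and the other 3 held 84.3 to 91.3 CPM. Srebf2 had a log2 fold change of 0.15 ± 0.08 (SE, adjusted p = 0.12), with 0.35 (adjusted p = 0.00013) and -0.14 (adjusted p = 0.17), and it was called without wildtype replicate 6 (0.19) or 7 (0.20). The retention protein Insig1 split in the same way, with 0.81 (adjusted p = 0.00018) and -0.38 (adjusted p = 0.11), as did Insig2 with 0.48 (adjusted p = 0.00040) and -0.19 (adjusted p = 0.24), which was called without wildtype replicate 7 (0.27). Scap, the escort of SREBP, was called in opposite directions against the 2 sets, with 0.24 (adjusted p = 0.024) and -0.47 (adjusted p = 0.00038). Stard4, a sterol carrier, had 52.8 ± 4.61 CPM in wildtype and 48.1 ± 6.84 CPM in PKD, a log2 fold change of -0.13 (adjusted p = 0.16) that was -0.15 and -0.11 against the 2 sets.

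The enzymes that supply and join acetyl units open the fatty acid branch. Of 3 genes of acetyl-CoA and NADPH supply 2 were called lower, and of 4 genes of chain synthesis 3 were called lower, with median log2 fold changes of -0.34 and -0.55 and no gene called higher. Of all genes tested, 25.0% were called lower and 24.1% higher. Of these 7 genes, Acly and Mcat were called lower against both wildtype sets. Acly (chr11:100367165-100440756), the citrate lyase that releases acetyl-CoA in the cytosol, ranged from 106 to 147 CPM with a median of 121 in wildtype and from 68.9 to 126 CPM with a median of 90.2 in PKD. In 11 of 12 PKD kidneys Acly lay below the wildtype median, and in 9 below every wildtype kidney. Acly fell by 0.43 on the log2 scale (SE 0.09, adjusted p = 0.00030), by 0.32 for the libraries ending in R (adjusted p = 0.010) and by 0.61 with the other 3 (adjusted p = 0.00033).

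Mcat (chr15:83430998-83447988), the malonyl transferase of mitochondrial fatty acid synthesis, ranged from 49.2 to 71.5 CPM with a median of 57.7 in wildtype and from 31.6 to 47.6 CPM with a median of 38.6 in PKD. All 12 PKD kidneys lay below all 8 wildtype kidneys. Mcat fell by 0.63 on the log2 scale (SE 0.07, adjusted p = 2.7e-09), by 0.72 against the first set (adjusted p = 1.0e-09) and by 0.48 against the second (adjusted p = 4.9e-05).

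Fasn, the cytosolic fatty acid synthase, varied more between kidneys than any enzyme before it. It ranged from 76.4 to 448 CPM with a median of 225 in wildtype and from 48.9 to 242 CPM with a median of 107 in PKD, and 11 of 12 PKD kidneys lay below the wildtype median. The log2 fold change of Fasn was -0.96 ± 0.33 (SE, adjusted p = 0.015), with -0.60 for the libraries ending in R (adjusted p = 0.16) and -1.42 with the other 3 (adjusted p = 0.0040), and without wildtype replicate 8 it was -0.76 (adjusted p = 0.052). Acaca and Acacb, the carboxylases that make malonyl-CoA, had log2 fold changes of -0.46 ± 0.22 (SE, adjusted p = 0.072) and -0.43 ± 0.17 (SE, adjusted p = 0.037). Both were called lower against the second set (-0.88 and -0.64) and not against the first (-0.14 and -0.30). The call of Acacb was lost without wildtype replicate 2, 6 or 8 or PKD replicate 1, 2, 4, 5, 8 or 11 (log2 fold change -0.41 to -0.31, adjusted p up to 0.14), and also with upper-quartile factors (adjusted p = 0.051), without a filter on low counts (0.062) and by limma-voom (0.054). Acaca was called without wildtype replicate 1, 3 or 5 or PKD replicate 6 or 12 (-0.56 to -0.53), and without PKD replicates 10 and 12 together (-0.54, adjusted p = 0.046).

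Me1, the malic enzyme that yields NADPH, ranged from 370 to 632 CPM with a median of 476 in wildtype and from 325 to 465 CPM with a median of 385 in PKD, with all 12 PKD kidneys below the wildtype median. Its log2 fold change was -0.34 ± 0.09 (SE, adjusted p = 0.0022), with -0.17 (adjusted p = 0.10) and -0.59 (adjusted p = 5.9e-05). Acss2, which activates free acetate, was not called against all libraries (-0.17, adjusted p = 0.26) and was called in opposite directions against the 2 sets, with 0.25 (adjusted p = 0.022) and -0.69 (adjusted p = 9.1e-06).

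Elongases and desaturases held the calls in the other direction, with 3 of 7 called higher, 0 lower and a median log2 fold change of 0.11. Over all genes tested, 24.1% were called higher and 25.0% lower. Elovl5, which elongates polyunsaturated chains, ranged from 18.2 to 41.8 CPM with a median of 21.7 in wildtype and from 36.8 to 93.3 CPM with a median of 45.2 in PKD. All 12 PKD kidneys lay above the wildtype median and 8 above every wildtype kidney. Elovl5 had a log2 fold change of 0.79 ± 0.16 (SE, adjusted p = 0.00012), with 1.26 for the libraries ending in R (adjusted p = 2.0e-08) and 0.26 with the other 3 (adjusted p = 0.23). It was 0.65 without PKD replicates 10 and 12 (adjusted p = 0.00029).

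Fads1, the delta-5 desaturase of polyunsaturated chains, ranged from 46.3 to 131 CPM with a median of 55.4 in wildtype and from 72.6 to 138 CPM with a median of 106 in PKD. Scd2, a stearoyl-CoA desaturase, ranged from 23.2 to 67.7 CPM with a median of 28.2 in wildtype and from 45.5 to 83.2 CPM with a median of 57.2 in PKD. In both genes the PKD kidneys lay above all 5 libraries ending in R and overlapped the other 3. Their log2 fold changes were 0.54 ± 0.16 for Fads1 (SE, adjusted p = 0.0044) and 0.62 ± 0.19 for Scd2 (SE, adjusted p = 0.0073), with 1.06 and 1.24 against the first set and -0.04 for each against the second. Fads2, the delta-6 desaturase, was called in opposite directions, with 0.64 (adjusted p = 9.4e-05) and -0.59 (adjusted p = 0.0014).

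Scd1, the main stearoyl-CoA desaturase of liver and fat, ranged from 70.2 to 636 CPM with a median of 251 in wildtype and from 54.3 to 716 CPM with a median of 141 in PKD. Its log2 fold change of -0.32 ± 0.42 (SE, adjusted p = 0.54) had a 95% interval from -1.17 to 0.53, and was 0.59 against the first set (adjusted p = 0.28) and -1.16 against the second (adjusted p = 0.057). Elovl1, an elongase of very long chains, and Elovl6, which elongates palmitate, had log2 fold changes of 0.11 ± 0.07 (SE, adjusted p = 0.18) and -0.11 ± 0.14 (SE, adjusted p = 0.53), and neither was called against either set (0.17 and 0.0041 for Elovl1, -0.0087 and -0.28 for Elovl6).

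Among the genes of glycerolipid synthesis, Lpin1, a phosphatidate phosphatase, ranged from 112 to 201 CPM with a median of 125 in wildtype and from 78.8 to 151 CPM with a median of 101 in PKD. Its log2 fold change was -0.39 ± 0.11 (SE, adjusted p = 0.0050), with -0.52 for the libraries ending in R (adjusted p = 0.00074) and -0.16 with the other 3 (adjusted p = 0.40). Gpam, which adds the first acyl chain to glycerol phosphate, had 0.18 ± 0.10 (SE, adjusted p = 0.15) and was called without wildtype replicate 6 (0.25, adjusted p = 0.046). Dgat2, which makes triglyceride, had -0.10 ± 0.11 (SE, adjusted p = 0.47). Against the 2 sets Gpam had 0.47 (called) and -0.21 (not called), and Dgat2 was called in opposite directions (0.23 and -0.53).

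Of the lipogenic regulators, Srebf1, the transcription factor of fatty acid genes, ranged from 23.6 to 54.2 CPM with a median of 39.8 in wildtype and from 45.5 to 78.2 CPM with a median of 56.8 in PKD. Every PKD kidney lay above the wildtype median and 8 above every wildtype kidney. Srebf1 had a log2 fold change of 0.59 ± 0.12 (SE, adjusted p = 0.00026), with 0.88 (adjusted p = 4.5e-07) and 0.19 (adjusted p = 0.20). Thrsp, known as a thyroid hormone responsive gene of lipogenic tissue, ranged from 12.5 to 99.6 CPM with a median of 37.4 in wildtype and from 5.59 to 70.6 CPM with a median of 17.6 in PKD. Thrsp had a log2 fold change of -1.08 ± 0.47 (SE, adjusted p = 0.055). It was -0.67 and -1.58 against the 2 sets, with a call in the second (adjusted p = 0.032), and -1.25 without PKD replicates 10 and 12 (adjusted p = 0.038). Limma-voom called Thrsp as lower as well (-1.25, adjusted p = 0.029). In fits that left out 1 kidney, Thrsp was called without wildtype replicate 1, 3, 5 or 7, PKD replicate 6 or 12, or 1 of PKD + Salsalate replicates 2, 3 and 12 (-1.39 to -1.08).

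**Figure D3:**
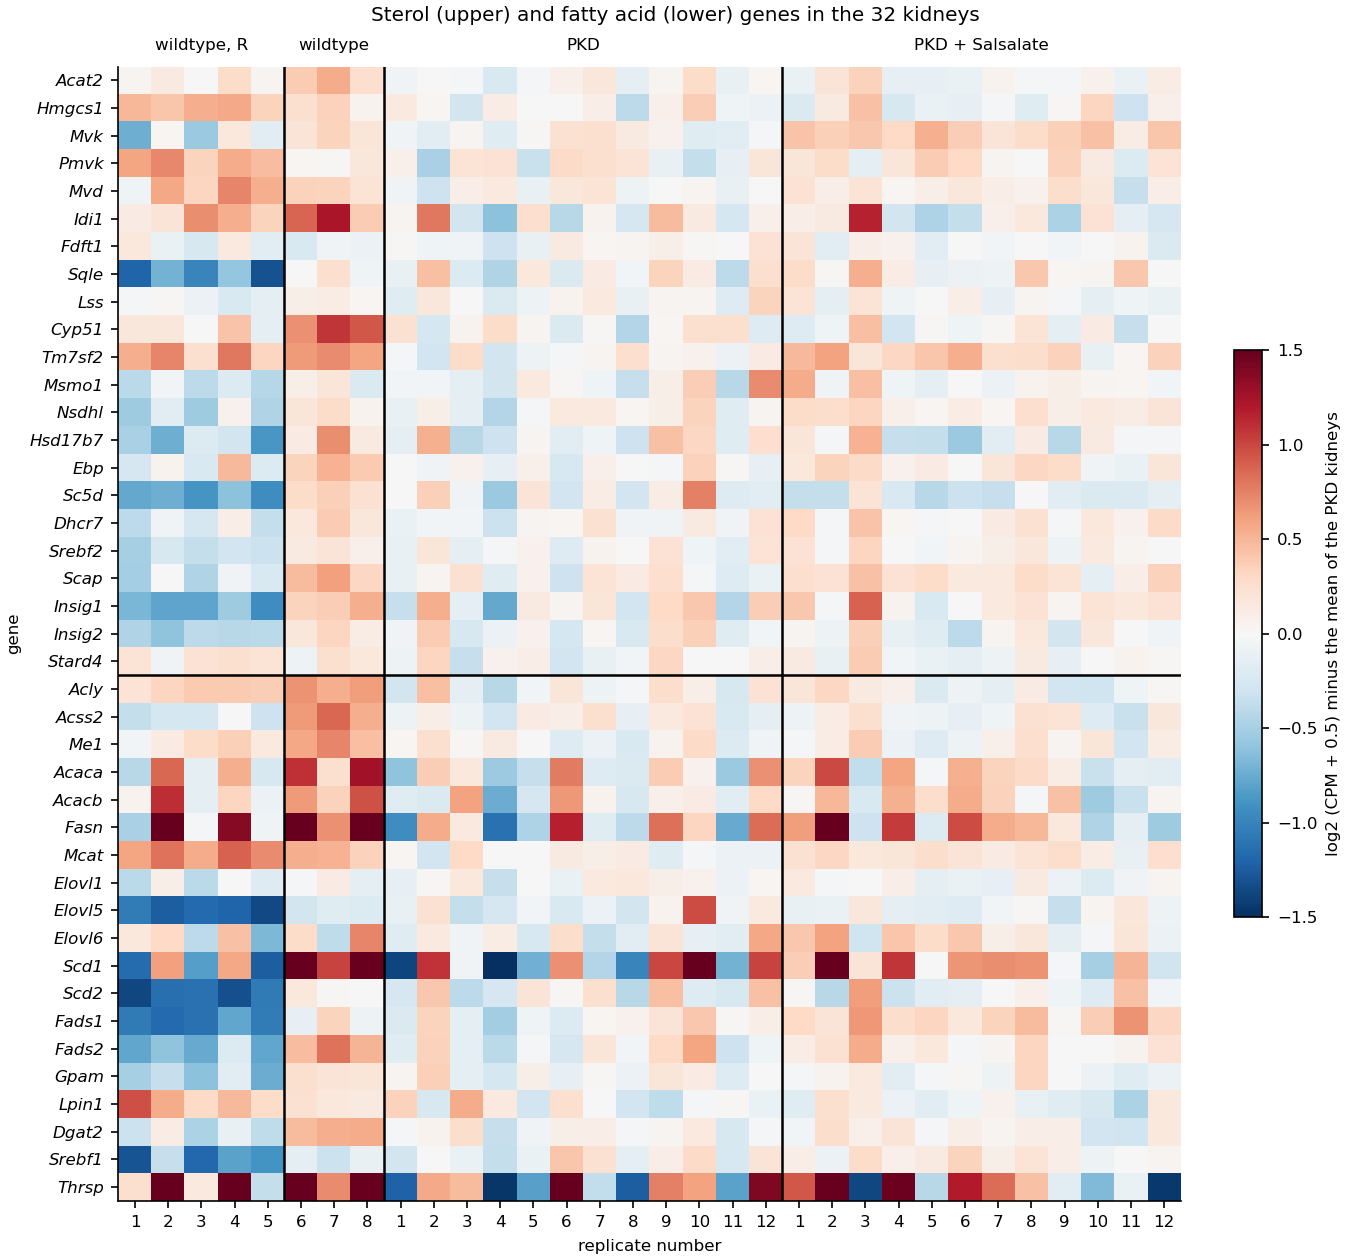
Log2 (CPM + 0.5) minus the mean of the PKD kidneys for the 41 tested members (rows, sterol above the line and fatty acid below) in the 32 kidneys (columns, with replicate numbers), with colours capped at 1.5 in either direction. The 3 wildtype libraries whose names do not end in R are mostly above the PKD mean, and 34 of the 41 rows have a lower mean in the 5 libraries ending in R than in those 3. Fasn, Scd1 and Thrsp vary most from kidney to kidney.

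The comparison of PKD + Salsalate with PKD asked what 2 weeks of salsalate changed in cystic kidneys. Mvk, in the sterol branch, was the 1 member of 41 called, as higher, where 0.251% of all genes were called higher and 0.329% lower. No fatty acid gene was called. In this branch 2 genes had an unadjusted p under 0.05, and the Wald test of DESeq2 and limma-voom called 0 as well. Fads1 was called in other fits, which are given below. The median log2 fold change was 0.06 in the sterol branch, 0.08 in the fatty acid branch and -0.01 over all genes tested, and 28 members were above 0 and 13 below. The sterol median was 0.03 without PKD + Salsalate replicate 3 and 0.10 without PKD replicate 12, and the fatty acid median 0.01 without PKD + Salsalate replicate 2 and 0.11 without PKD replicate 10. Over all genes, 81 were called and 1436 had an unadjusted p under 0.05. Of members called in PKD against wildtype, Elovl5 had -0.10 (95% interval -0.38 to 0.18), Scd2 -0.02 (-0.36 to 0.32), Srebf1 0.09 (-0.13 to 0.31) and Idi1 0.02 (-0.33 to 0.36).

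Mvk (chr5:114582267-114601803) phosphorylates mevalonate. It ranged from 17.4 to 23.5 CPM with a median of 19.8 in PKD and from 21.3 to 28.8 CPM with a median of 25.6 in PKD + Salsalate kidneys. All 12 treated kidneys lay above the PKD median and 10 above every PKD kidney, and the 8 wildtype kidneys ranged from 11.6 to 25.0 CPM. Mvk rose by 0.35 on the log2 scale (SE 0.09, 1.28-fold, adjusted p = 0.045). The call was lost, with a log2 fold change of 0.34 to 0.36 and an adjusted p of up to 0.093, without any 1 of PKD replicates 1, 2, 4, 5, 9, 10, 11 and 12 and PKD + Salsalate replicates 1, 2, 3, 4, 5, 6, 8, 9, 10 and 12. Without PKD replicates 10 and 12 together it was 0.34 (adjusted p = 0.094), where 0.230% of all genes were called higher and 0.208% lower.

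Tm7sf2, the ring reductase that was lower in PKD, came next. It ranged from 10.3 to 15.4 CPM with a median of 12.7 in PKD and from 11.7 to 19.5 CPM with a median of 16.0 in PKD + Salsalate kidneys. In 11 of 12 treated kidneys Tm7sf2 lay above the PKD median and in 7 above every PKD kidney. The log2 fold change was 0.32 ± 0.08 (SE, adjusted p = 0.052), just above the threshold, and the gene was called without wildtype replicate 3, 5 or 7, either PKD replicate 3 or 8, or 1 of PKD + Salsalate replicates 10 and 11 (0.32 to 0.35, adjusted p from 0.018). It was also called by the Wald test of DESeq2 and by limma-voom. The treated kidneys still lay lower than wildtype kidneys, with a log2 fold change of -0.28 ± 0.09 (SE, adjusted p = 0.010), which was -0.24 for the libraries ending in R (adjusted p = 0.055) and -0.35 for the other 3 (adjusted p = 0.020).

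In the fatty acid branch, Mcat and Fads1 had the smallest p-values. Mcat ranged from 35.7 to 48.2 CPM with a median of 44.4 in PKD + Salsalate kidneys, and 11 of 12 of them lay above the PKD median of 38.6 CPM. Mcat had a log2 fold change of 0.18 ± 0.06 (SE, p = 0.0049, adjusted p = 0.18 by edgeR's quasi-likelihood test). Fads1 ranged from 105 to 167 CPM with a median of 130 in PKD + Salsalate kidneys, and 11 of 12 of them lay above the PKD median of 106 CPM. Its log2 fold change was 0.33 ± 0.14 (SE, p = 0.020, adjusted p = 0.33). When the wildtype kidneys were left out of the fit, Fads1 had the same fold change and an adjusted p of 0.045. It was also called with only the wildtype libraries ending in R in the fit (0.33, adjusted p = 0.045). With only the other wildtype libraries it was called as well (0.34, adjusted p = 0.040). Mcat was thus 0.63 lower in PKD than in wildtype on the log2 scale and 0.18 higher after salsalate, while Fads1 was above the libraries ending in R in PKD already. The study chose Mcat, Acacb and Fasn for display from this comparison of the same kidneys, so their values here are not independent of that choice.

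The other members are given by their range. Among the mevalonate enzymes besides Mvk, log2 fold changes lay between -0.01 (Hmgcs1) and 0.13 (Pmvk), and Mvd had 0.10 with 11 of 12 treated kidneys above the PKD median. In the squalene and ring steps they lay between -0.24 (Sc5d) and 0.15 (Nsdhl) besides Tm7sf2, with 12 of 12 treated kidneys above the PKD median for Dhcr7 (0.14, p = 0.085, adjusted p = 0.59). Of the sensing and transport genes, Scap had 0.20 ± 0.10 (SE, p = 0.047, adjusted p = 0.48) with 11 of 12 treated kidneys above the PKD median. Srebf2 had 0.07 (95% interval -0.07 to 0.21) and Insig1 0.15 (-0.18 to 0.49).

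Members with large spread between kidneys gave wide intervals. Fasn had 0.29 (95% interval -0.31 to 0.89), with 74.0 to 322 CPM in PKD + Salsalate kidneys. Scd1 had 0.08 (-0.68 to 0.85) and Thrsp 0.20 (-0.67 to 1.07). For Acaca and Acacb, the carboxylases, the fold changes were 0.16 (-0.23 to 0.55) and 0.12 (-0.19 to 0.44). Each of these intervals included 0, and with 12 kidneys a group they left room for a change in either direction.

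PKD + Salsalate replicate 3, the most deeply sequenced library, had the highest treated value of several sterol genes. In this kidney 1 of the 22 tested sterol genes lay below the PKD median. Idi1 had 30.8 CPM in this kidney and at most 15.8 CPM in the other treated kidneys, and Insig1 had 66.2 and at most 47.3 CPM. Without this kidney, Mvk had a log2 fold change of 0.35 and an adjusted p of 0.063.

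PKD + Salsalate kidneys were also compared with wildtype kidneys, which were the same libraries that PKD had been compared with. In the sterol branch Mvk, Sqle, Nsdhl and Srebf2 were called higher and Acat2, Hmgcs1, Mvd, Idi1, Cyp51 and Tm7sf2 lower. In the fatty acid branch Elovl5, Scd2, Fads1 and Srebf1 were called higher and Acly, Me1, Mcat and Lpin1 lower. Of all genes tested, 21.8% were called higher and 23.2% lower. Against the libraries ending in R, 11 sterol and 8 fatty acid genes were called higher and 3 and 3 lower (29.7% and 28.4% of all genes), and against the other 3 libraries none was called higher and 7 and 8 were called lower (18.3% and 16.5% of all genes). Acly and Mcat were the members called in the same direction in all 3 fits, which was not counted over all genes.

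The values of these members in treated kidneys are given beside their PKD values. Acly had a log2 fold change of -0.46 ± 0.09 (SE, adjusted p = 0.00016) against wildtype in treated kidneys and -0.43 in PKD kidneys, and Mcat had -0.45 ± 0.07 (SE, adjusted p = 2.2e-06) and -0.63. In treated kidneys the values for the 2 sets were -0.35 and -0.63 for Acly and -0.54 and -0.29 for Mcat, each called. Mvk had 0.38 ± 0.10 (SE, adjusted p = 0.0019), with 0.57 (adjusted p = 2.2e-05) and 0.12 (adjusted p = 0.32), and Fads1 had 0.87 ± 0.16 (SE, adjusted p = 3.2e-05), with 1.39 (adjusted p = 7.5e-11) and 0.29 (adjusted p = 0.10). Nsdhl (0.27) lost its call without wildtype replicate 1, 3 or 5 (adjusted p from 0.061 to 0.063), Srebf2 (0.22) without wildtype replicate 1, 3, 4 or 5 (0.057 to 0.073), and Acat2 (-0.20) and Idi1 (-0.53) without wildtype replicate 7 (0.075 for each). For the 2 sets Nsdhl had 0.47 and -0.017, Srebf2 0.42 and -0.064, Acat2 -0.08 and -0.38 and Idi1 -0.32 and -0.80, with Nsdhl and Srebf2 called in the first and Acat2 and Idi1 in the second. Without a filter on low counts Srebf2 (adjusted p = 0.054), Acat2 (0.10) and Idi1 (0.052) lost their calls. In the other direction, Pmvk was called as lower without wildtype replicate 6 or 7, Insig1 as higher without 6, 7 or 8, Msmo1 and Dhcr7 as higher without 7, Fasn as lower without wildtype replicate 1 or PKD + Salsalate replicate 2, and Thrsp as lower without PKD + Salsalate replicate 2 (log2 fold changes of -0.28 for Pmvk, 0.48 to 0.54 for Insig1, 0.31 for Msmo1, 0.21 for Dhcr7, -0.83 to -0.80 for Fasn and -1.14 for Thrsp). Msmo1 was also called without PKD replicates 10 and 12 (0.25, adjusted p = 0.039).

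Within each PKD group, 8 pairs of genes were correlated across the 12 kidneys on log2 CPM, which made 16 tests with p-values from 100000 permutations. The pairs were chosen to span the branches and the adipocyte transcript Adipoq, since Scd1, Thrsp and Fasn are abundant in fat. Fasn itself was not paired with Adipoq. Earlier results of these data were known at the choice, so the p-values are not independent of it. In the 12 PKD kidneys, Fasn and Scd1 had a Pearson's r of 0.85 (adjusted permutation p = 0.0023) and a Spearman's rho of 0.84 (adjusted permutation p = 0.0026), with r = 0.85 without the 2 kidneys farthest from the median of Fasn. In the 12 PKD + Salsalate kidneys r was 0.90 (adjusted permutation p = 0.00053) and rho 0.86 (adjusted permutation p = 0.0023), with r = 0.81 without 2 kidneys.

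Scd1 and Thrsp also followed Adipoq, which ranged from 0.465 to 14.0 CPM in PKD and from 0.348 to 17.5 CPM in PKD + Salsalate kidneys. For Scd1 and Adipoq, r was 0.86 (adjusted permutation p = 0.0018) and rho 0.88 (adjusted permutation p = 0.0010) in PKD, and r was 0.84 (adjusted permutation p = 0.0023) and rho 0.93 (adjusted permutation p = 0.00037) in PKD + Salsalate kidneys. For Thrsp and Adipoq, r was 0.91 and rho 0.96 in PKD, and r was 0.87 and rho 0.95 in PKD + Salsalate kidneys (adjusted permutation p = 0.00053 for each r and 0.00032 for each rho). Without 2 kidneys, r was 0.95 and 0.89 for Scd1 and 0.95 and 0.85 for Thrsp in the 2 groups. Kidneys with more transcripts of adipocytes thus had more Scd1 and Thrsp. On linear CPM, the adjusted p of r was 0.11 for Fasn with Scd1 and for Scd1 with Adipoq in PKD kidneys, where replicate 10 had the highest Scd1.

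Fasn and Srebf1 were correlated in PKD kidneys, with r = 0.84 (adjusted permutation p = 0.0023), rho = 0.84 (adjusted permutation p = 0.0026) and r = 0.72 without 2 kidneys. In PKD + Salsalate kidneys r was 0.02 (adjusted permutation p = 1.00) and rho 0.03 (adjusted permutation p = 0.94). The difference between the groups was not tested. On log2 CPM, Hmgcs1 was not correlated with Sqle, Idi1, Insig1 or Fasn in either group at an adjusted p under 0.05. The largest of these 8 values, for Hmgcs1 and Idi1 in PKD + Salsalate kidneys, was r = 0.64 (adjusted permutation p = 0.051) with rho = 0.38 (adjusted permutation p = 0.39), and it was -0.02 without 2 kidneys. On linear CPM the r of this pair was 0.71 (adjusted permutation p = 0.037).

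**Figure D4:**
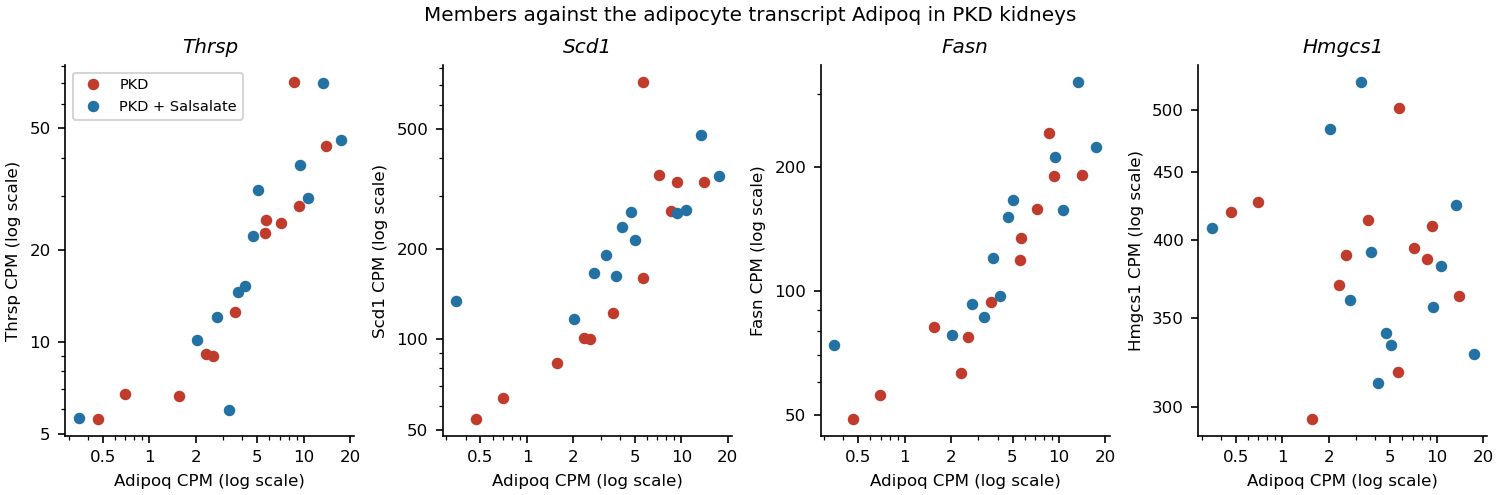
CPM of Thrsp, Scd1, Fasn and Hmgcs1 against that of the adipocyte transcript Adipoq in the 12 PKD (red) and 12 PKD + Salsalate (blue) kidneys, each point a kidney, with log scales on both axes. Thrsp and Scd1 rise with Adipoq from left to right in both groups, and no test was run for Fasn or Hmgcs1 with Adipoq. The highest red point of Scd1 is PKD replicate 10, the kidney with liver transcripts.

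The marker lists moved with the groups as follows. The 7 tubular injury markers summed to 384 to 678 CPM in wildtype, 1442 to 3181 CPM in PKD and 1278 to 4053 CPM in PKD + Salsalate kidneys, and all 7 were called higher in PKD. The 8 macrophage markers summed to 132 to 189, 276 to 405 and 242 to 437 CPM, and all 8 were called higher in PKD. The 12 adipocyte markers summed to 990 to 2333, 770 to 1585 and 929 to 1760 CPM, with 2 of 11 tested (Retn and Adrb3) called lower in PKD and none called after salsalate. All 11 had a log2 fold change below 0 in PKD, with a median of -0.84. Most of the sum was Pck1, which kidney also expresses. Without Pck1, Fabp4 and Lipe, which were taken out after their values were seen, the sum was 103 to 646 CPM in wildtype, 21.9 to 365 CPM in PKD and 12.2 to 441 CPM in PKD + Salsalate kidneys, and in wildtype the libraries ending in R (103 to 646 CPM) overlapped the others (157 to 295 CPM). Of 10 tested liver markers, 7 were called higher in PKD (median log2 fold change 1.73) and 2, Alb and Apoc3, lower after salsalate. The PKD group of both comparisons included replicate 10, and these calls are not given without it. The liver sum was 565 to 957 CPM in the libraries ending in R, 1112 to 1782 CPM in the other wildtype libraries and 1257 to 1891 CPM in PKD + Salsalate kidneys. In PKD it was 7780 CPM in replicate 10 and 1114 to 1844 CPM in the other 11 kidneys, which overlapped the wildtype libraries not ending in R. Cyp2e1, at a mean of 1191 CPM over the 32 kidneys and at 0 in none, made up most of the sum outside replicate 10. Of all genes tested, 24.1% were called higher and 25.0% lower in PKD, and 0.251% were called higher and 0.329% lower after salsalate. Of 10 proximal tubule markers 2 were called higher and 3 lower in PKD, and of 8 distal nephron and collecting duct markers 0 and 4, with none of either list called after salsalate. Of the liver and adrenal markers, Ahsg was at 0 in 20 kidneys and Cyp11b2 in 31 of the 32 kidneys. Their part in the members' differences was not tested.

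Other genes of the same pathways were read from lists, each against all 8 wildtype libraries in PKD. Of 9 genes of SREBP processing and turnover, Rnf145 was called higher (0.50, with 1.02 and -0.08 for the 2 sets) and Fbxw7 lower (-0.36, but -0.67 and 0.32 for the 2 sets, both called). Of all genes tested, 24.1% were called higher and 25.0% lower. All 9 genes had opposite signs against the 2 wildtype sets, and 3 were called in opposite directions. The share of all genes with opposite signs was not counted.

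Of 19 tested genes of sterol uptake, storage and efflux, 10 were called higher and 2 lower, where 24.1% and 25.0% of all genes were, and the median log2 fold change was 0.27. Abca1, the exporter that loads cholesterol onto lipoproteins, ranged from 12.0 to 30.2 CPM with a median of 16.8 in wildtype and from 27.3 to 60.5 CPM with a median of 49.3 in PKD kidneys. It rose by 1.35 on the log2 scale (SE 0.15, adjusted p = 9.8e-09), by 1.70 for the libraries ending in R (adjusted p = 3.1e-10) and by 0.93 with the others (adjusted p = 0.00023). Nr1h3, the liver X receptor alpha that is known to activate Abca1, fell by 0.51 (SE 0.08, adjusted p = 2.8e-06), by 0.57 and 0.41 against the 2 sets, each called. Of the 10 higher genes, 7 were called higher against both sets: Lipa, the lysosomal lipase, the lipoprotein receptors Scarb1, Vldlr and Lrp8, the exporters Abca1 and Abcg1, and Apoe, the lipoprotein component. The share of all genes called higher against both sets was not counted. Apoe had a log2 fold change of 1.22 (1.24 and 1.17 for the 2 sets) and Lrp8 of 1.01 (1.39 and 0.61). Macrophages also express several of these genes, and the macrophage markers, which were higher in PKD, moved with them. Their part in this was not tested.

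Against 24.1% of all genes called higher and 25.0% called lower, 5 of 20 tested genes of fatty acid synthesis and activation were called higher and 3 lower, 3 of 15 glycerolipid genes higher and 3 lower, and 0 of 7 NADPH genes higher and 2 lower. The largest called rises and falls were those of the elongase Elovl2 (0.97, with 1.72 called and 0.28 not called for the 2 sets), the desaturase family member Fads6 (-0.90, with -0.97 and -0.80, both called), the acyltransferase Gpat3 (0.73, with 1.35 called and 0.13 not called), the triglyceride lipase Pnpla2 (-0.33, with -0.02 not called and -0.74 called) and the isocitrate dehydrogenase Idh1 (-0.42, with -0.38 and -0.49, both called). No gene of these lists was called in PKD + Salsalate against PKD. Among them, Npc1l1, Abcg5, Abcg8, Elovl3, Elovl4 and Hsd17b8 did not pass the filter on low counts.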

How the data were processed

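Poly(A) RNA of 32 kidneys was sequenced as directional libraries. The authors trimmed the reads (cutadapt 2.10), aligned them to GRCm39 with STAR 2.7.5a and counted reads per Ensembl gene by strand with HTSeq 0.12.4, as the submitters' processing notes and the study's methods give it. The deposited values are raw counts, with 73.6 to 83.1% of a library's reads on genes. Summary lines that name no gene were left out.

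Groups were taken from the labels (8 wildtype, 12 PKD and 12 PKD + Salsalate kidneys). The study describes the kidneys as those of 32 mice. Genes with log2 CPM above 1 in at least 25% of the kidneys were tested (13961 genes). Counts were scaled by TMM, and 1 model of all 3 groups was tested by edgeR's quasi-likelihood method (edgeR 4.0.16, R 4.3.3), with p-values adjusted by Benjamini-Hochberg over all genes tested and 0.05 as the threshold. Log2 CPM values of the filter and of single kidneys use a prior count of 2, and fold changes are those of the fit at its default. CPM values use the TMM-scaled totals. At the smallest total, 1 CPM is 11.2 reads. Correlations used 100000 two-sided permutations, adjusted over the tests of a family. Gene positions are from GENCODE and promoter windows from RefSeq.

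No 2 libraries of a group agreed within sampling noise (chi-square per gene of at least 5.36 over 160 pairs, where 1 is sampling noise). Alternatives were DESeq2 1.42.0 (size factors and Wald test), upper-quartile factors, no filter, edgeR's own filter, limma-voom (limma 3.58.1), the 2 groups alone, a replicate block, each wildtype set and each kidney left out. Leaving out PKD replicates 10 and 12 was added after seeing the data. The members, gene lists and pairs were chosen with earlier results of these data known. Genes were named as members of the list, and other pathway genes as those with the largest called difference in each direction in their list. The list of further sterol synthesis genes is not reported here. Apoe, Lrp8 and the other genes called against both wildtype sets were named after their values were seen.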

Additional observations from a re-analysis of the deposited data

Results flagged for a closer look

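Among the 42 members in the 8 wildtype kidneys, Lpin1, the phosphatidate phosphatase, had 1 kidney far from the others. Wildtype replicate 1 held 201 CPM of Lpin1, and the next highest wildtype kidney held 150 CPM. This gap was 0.570 of the range of the group. Chance alone marks about 1 in 20 groups in this way, and the 42 genes gave 1.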

How the results depend on the processing

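Of 5289 values of single members under the alternatives, 74 lost and 82 gained a call and 17 that were called under 1 of the settings turned direction. The other 5116 kept their side of the threshold, and 135 of them, called under neither setting, had the other sign. The 17 came from the use of 1 set of wildtype libraries, and their cause was not tested. With the libraries ending in R alone, PKD against wildtype gave 9 sterol and 8 fatty acid genes higher and 4 and 3 lower, and Scap (0.24), Acss2 (0.25) and Dgat2 (0.23) turned. With the other 3 libraries alone, 0 sterol and 0 fatty acid genes were higher and 10 fatty acid genes lower, and Mvk (-0.24), Sqle (-0.046), Dhcr7 (-0.25), Scd2 (-0.037), Fads1 (-0.044) and Fads2 (-0.59) turned. PKD + Salsalate against wildtype gave 11 sterol and 8 fatty acid genes higher and 3 sterol genes lower with the first set, where Acss2 (0.25) and Dgat2 (0.26) turned, and 0 and 0 higher and 8 fatty acid genes lower with the second, where Nsdhl (-0.017), Sc5d (-0.50), Srebf2 (-0.064), Scap (-0.27), Scd2 (-0.051) and Fads2 (-0.45) turned.

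In PKD + Salsalate against PKD, where 81 genes and 1 member were called, the Wald test of DESeq2 called 199 genes and 2 members, limma-voom 146 and 2, the 2 groups alone 196 and 3, and the fits with the first or second wildtype set 145 and 3, or 257 and 3. In each of these 2 of the members were sterol genes higher after salsalate, and the 3 fits with 3 members had 1 fatty acid gene. Without a filter, or without PKD replicates 10 and 12, 0 members and 0 sterol genes were called. Leaving out 1 kidney gave 39 to 226 genes and 0 to 2 members, all 0 to 2 sterol genes higher, and gave 1 to 4 sterol genes higher in PKD against wildtype (4 without wildtype replicate 7) and 2 to 7 in PKD + Salsalate against wildtype (7 without wildtype replicate 7, and 2 without 1, 3 or 5).

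Replicate numbers did not pair the samples, since same-numbered kidneys correlated with r from -0.40 to 0.41 in PKD + Salsalate and PKD, from -0.55 to 0.47 in PKD and wildtype and from -0.36 to 0.28 in PKD + Salsalate and wildtype, and 1 of 12, 3 of 8 and 0 of 8 correlated best with their own number. With the numbers as a replicate block, 48 genes and 0 members, 0 sterol genes among them, were called in PKD + Salsalate against PKD, with 17 members in each comparison with wildtype, where Acacb in PKD (-0.36, adjusted p = 0.12) and Tm7sf2 in PKD + Salsalate (-0.24, adjusted p = 0.060) lost their calls. Size factors of DESeq2 called 3178 genes higher and 3750 lower in PKD against wildtype, and upper-quartile factors 3754 and 3061, where the main fit called 3363 and 3489. Depth limits the least abundant members, since Fdps rested on 7 to 66 reads per kidney.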
